A study of Mus musculus with 384 samples.

Results

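Genes for 9 suppressive and cytotoxic effector molecules of regulatory T (Treg) cells were followed through single cells of mouse skin: Il10, Ebi3, Fgl2, Gzmb, Srgn, Entpd1, Nt5e, Lrrc32 and Nrp1. They were chosen by name for their function, by a rule that uses no measured value but with earlier results of these data known. All 9 were among the 50556 gene symbols of the count table. Treg cells are CD4 T cells that carry the transcription factor Foxp3 and hold back immune responses. They were sorted one per well from the ear skin of mice given 5% imiquimod, a Toll-like receptor agonist that gives a psoriasis-like inflammation, or a vehicle, both applied to the ears until day 3. Each treatment had 2 mice and 2 plates, and each plate held 87 single-cell wells. Another 16 wells held 10 Treg cells each and 20 held no cell, and the labels give no treatment for either kind. The strain, the age of the mice, the markers of the sort and the mouse behind each plate are not given in the sources used here. A plate is therefore the replicate, the p-values measure the spread between plates, and treatment and plate cannot be told apart beyond that spread.

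Treg cells restrain other cells by several routes, and the 9 genes sample them. Il10 encodes a cytokine that dampens inflammation at the skin barrier. Ebi3 encodes the subunit that pairs with another chain to make interleukin-27 or interleukin-35. Fgl2 encodes a secreted fibrinogen-like protein that acts on antigen-presenting cells. Granzyme B, the product of Gzmb, is a serine protease stored in cytotoxic granules, and serglycin, the product of Srgn, is the core protein of the proteoglycan on which such granules are packed. Entpd1 encodes CD39, which degrades extracellular ATP and ADP to AMP, and Nt5e encodes CD73, which turns AMP into the anti-inflammatory nucleoside adenosine. Lrrc32 encodes GARP, which holds latent TGF-beta on the Treg surface, and Nrp1 encodes neuropilin-1, a semaphorin receptor of many Treg cells.

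The start regions of Gzmb and Srgn are shown because these were the granule genes and the only members found in every well of 10 cells. The RefSeq table of the GRCm38.p6 build, which is older than the mm39 build of the counts, held promoters for 7 of the 9 genes. The lines below give the last 100 bases before the annotated start in transcript direction, with a matched AP-1, Ets or forkhead motif in capitals. Matches of the RUNX core are left in lower case. For Srgn the start is the upstream one of 2 in the table, the window is chr10:62527446-62527545 on the minus strand, and the capitals mark the Ets motif CCGGAAG beginning 52 bases before the start. The same window of the other Srgn start, chr10:62507758-62507857 and not shown, held no match to the AP-1, Ets or forkhead motif. For Gzmb the window is chr14:56262335-56262434 on the minus strand, and the capitals mark the AP-1 motif TGAGTCA beginning 58 bases before the start.
Srgn: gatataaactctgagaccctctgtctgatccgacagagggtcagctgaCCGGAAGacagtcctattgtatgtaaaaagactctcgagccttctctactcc
Gzmb: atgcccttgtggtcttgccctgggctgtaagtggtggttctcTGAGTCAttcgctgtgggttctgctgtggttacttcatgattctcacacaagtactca
Over the 250 bases before a start and on both strands, TGANTCA was present in the promoters of Fgl2 and Gzmb and in 6.75% of 32851 promoters. The Ets letters CCGGAAG or CTTCCGG were present for Ebi3 and Srgn and in 6.91% of promoters. The RUNX core TGTGGT or ACCACA was present for Gzmb and Srgn and in 14.0%, and the forkhead letters TGTTTAC or GTAAACA for none of the 7 genes and in 3.17%. These matches describe letters in a window and not binding.

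Single-cell wells with at least 500 detected genes and 10000 counts were kept, which left 38 and 44 cells on the imiquimod plates and 62 and 58 cells on the vehicle plates, 202 of 348 wells. That is 43.7% and 50.6% of imiquimod wells and 71.3% and 66.7% of vehicle wells. Kept cells held 47481 to 5946386 counts, and the median cell had 975 and 1093 detected genes on the imiquimod plates and 1040 and 1503 on the vehicle plates. The counts carry no molecular identifiers, so copies made by amplification count as reads, and the intervals below cover counting error only. T cell markers were seen in 92.1% of kept cells and Treg markers in 87.6%, and Foxp3 itself in 75 of 202. Markers of CD8 T and NK cells were seen in 3.47% and summed to at most 4.29 CPM on any plate, where CPM scales a plate's summed counts to its total, with Ncr1 and Eomes at 0. Macrophage markers were seen in 37.6% of cells, at a summed log2(CPM + 1) of 3.83 and 6.05 on the imiquimod plates and 2.74 and 7.29 on the vehicle plates, with C1qa and C1qb at 0. Dendritic cell markers were seen in 29.7% of cells, endothelial markers in 23.3%, mast cell markers in 18.3% and neutrophil markers in 7.43%. Several of these lists rested mostly on 1 or 2 genes. Of the mast cell list, Kit was seen in 35 cells and Cpa3 in 4. Of the macrophage list, Adgre1 was seen in 60 cells and no other gene in more than 16. Adgre1 summed to 0.193 and 0.686 CPM on the imiquimod plates and 2.92 and 22.4 CPM on the vehicle plates. Of the endothelial list, Pecam1 was seen in 29 cells, Emcn in 21, Kdr in 2 and Cdh5 in 1. Emcn summed to at most 14.9 CPM on any plate, and Pecam1 to as much as 433 CPM. Of the dendritic cell list, H2-Ab1 was seen in 49 cells and no other gene in more than 10. The mast cell list did not overlap between treatments, at a summed log2(CPM + 1) of 2.46 and 2.89 on the imiquimod plates and 8.10 and 6.87 on the vehicle plates, with Mcpt4, Tpsb2 and Cma1 at 0. The neutrophil list did not overlap either, at 5.79 and 5.82 on the imiquimod plates and 0.00 and 3.89 on the vehicle plates. Ly6g was at 0. Nor did the Treg list, at 12.89 and 12.74 on the imiquimod plates and 13.52 and 13.29 on the vehicle plates. Its genes did not share a direction. Il2ra, Ikzf2 and Cd4 were lower in CPM on both imiquimod plates, Foxp3 and Tnfrsf4 were higher on both, and Ctla4 and Tnfrsf18 overlapped. The gamma delta T cell list (0.02 and 0.00 against 0.14 and 0.25) and the B cell list (1.66 and 4.78 against 0.00 and 0.00) did not overlap. The other lists overlapped. The part of other cell types in the treatment comparison was not tested.

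Srgn was the most widely detected member and the other 8 were found in a minority of cells. A gene was called detected in a cell at 1 count or more. Srgn was detected in 57.4% of the 202 kept cells (exact 95% interval 50.3 to 64.3%). Gzmb followed with 40 cells (19.8%), Il10 with 33 (16.3%), Nt5e with 32 (15.8%) and Fgl2 with 25 (12.4%). Lrrc32 was seen in 16 cells (7.92%), Entpd1 and Nrp1 in 15 each (7.43%) and Ebi3 in 12 (5.94%).

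Background in wells without a cell was low, and some detections in cells rested on few reads. Across the 20 empty wells, Il10 had 1 count in 1 well, Srgn 2 counts in 1 well and Entpd1 1 count in each of 2 wells. The other 6 genes had none, which allows a share of up to 15% of such wells. One empty well passed the filter on cells, with 1527760 counts, and it held 1 count each of Il10 and Entpd1. Detections with fewer than 10 counts made up 9 of the 15 for Nrp1, 6 of the 12 for Ebi3 and 5 of the 15 for Entpd1, but 3 of the 40 for Gzmb and 3 of the 33 for Il10. In the single-cell wells below the filter Srgn was seen in 20.5%, and the other members in at most 4.11%.

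Levels of different genes were set side by side per kilobase of exon. The annotation for this was GENCODE M21, also of the older build. Mean levels over the 4 plates were 819 ± 599 CPM per kb for Srgn and 322 ± 73.2 for Il10 (SD, n = 4 plates), and Gzmb lay between them at 662, with plates from 547 to 768. Foxp3 stood next at 211 ± 69.0 CPM per kb. Ebi3 averaged 68.8 CPM per kb, with plates from 0 to 229, Fgl2 48.0 ± 15.8, Nt5e 24.9 ± 15.3, Lrrc32 16.1 ± 6.37, Entpd1 9.78 ± 12.2 and Nrp1 9.28 ± 11.6. The plate ranges of Srgn and Gzmb overlapped, and those of Gzmb and Il10 did not. From Ebi3 downwards each gene overlapped its neighbour in this order. Entpd1 and Nrp1 are also the members with the longest gene spans, ahead of 44.9 kb for Nt5e, 3.42 kb for Gzmb and 5.13 kb for Il10.

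The treatment comparison asked whether these effectors differ between Treg cells of imiquimod and vehicle skin. No member passed the test, and no gene of 14462 did. Each plate's kept cells were added up gene by gene, and edgeR's quasi-likelihood test was run on the 4 sums, adjusted over all genes by Benjamini-Hochberg with a threshold of 0.05. It called 0 genes (0%), with 1669 at an unadjusted p under 0.05 and a smallest adjusted p of 0.420, while DESeq2 called 4521, none of them a member. The median log2 fold change (imiquimod over vehicle) of all genes was -0.26, and it became 0.11 with DESeq2 size factors in the same test. A detection share that is lower on both imiquimod plates was common among all genes, at 47.8% of the 9042 genes seen in at least 5% of kept cells, and a share higher on both was seen for 5.13%. Of the members, Ebi3, Srgn, Entpd1, Nt5e and Nrp1 were in the first class, Il10 was alone in the second, and the plates of Fgl2, Gzmb and Lrrc32 overlapped. With 2 plates against 2 the exact permutation test cannot go below p = 0.333, and the p-values of the 9 genes are not adjusted. In summed level, Il10, Srgn and Lrrc32 were higher on both imiquimod plates after TMM scaling (13.7% of all genes were), and Entpd1 and Nrp1 were lower on both (31.1% of all genes were).

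**Figure D1:**
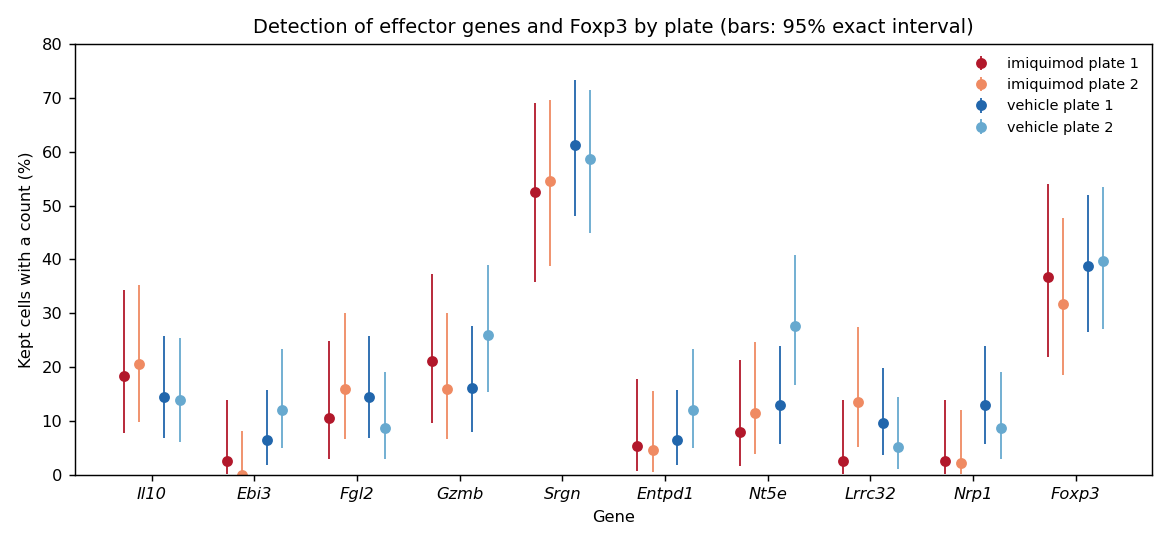
Share of kept cells with a count (percent, vertical axis) of each effector gene and of Foxp3 on the 4 plates, with exact 95% intervals as bars. Srgn lies between 52.6% and 61.3% on every plate, the other effector genes at 27.6% or lower, and the intervals of the plates overlap for each gene.

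Among the secreted factors, Il10 was the member seen in a higher share of the kept cells of both imiquimod plates. It was detected in 18.4% and 20.5% of imiquimod cells and in 14.5% and 13.8% of vehicle cells, which gave means of 19.4% ± 1.44 and 14.2% ± 0.511 (SD, n = 2 plates each, exact permutation p = 0.333, two-sided). The difference of 5.28 percentage points was 11.0 among cells with at least 1000 genes and 1.72 over all single-cell wells, where the plates overlapped with 10 and 11 of 87 imiquimod wells and 10 and 8 of 87 vehicle wells. The summed level of Il10 was 350 and 475 CPM on the imiquimod plates and 531 and 334 CPM on the vehicle plates, so before scaling the plates overlapped. The edgeR log2 fold change was 0.43 ± 1.00 (SE, adjusted p = 0.928), and it was -0.02 when cells were thinned to 100000 counts. Here and below, thinning left out the kept cells with fewer counts, 3 on imiquimod plate 1 and 1 on vehicle plate 1. A cell with Il10 held much of it: the median level in detecting cells was 1619 CPM in 16 imiquimod cells and 1288 CPM in 17 vehicle cells. Single cells carried 26.4% to 57.4% of a plate's Il10 counts.

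Ebi3 was the scarcest member and its level was set by single cells. It was seen in 1 of 38 and 0 of 44 imiquimod cells, the second of which allows a share of up to 6.82%, and in 4 of 62 and 7 of 58 vehicle cells. The imiquimod cell held 17824 counts, more than all 11 vehicle cells together with 5083. Summed Ebi3 was thus 265 and 0 CPM on the imiquimod plates and 16.3 and 36.3 CPM on the vehicle plates. The log2 fold change was 3.14 ± 2.98 (SE, edgeR adjusted p = 0.752), but -14.14 without imiquimod plate 1, the plate of that cell, which leaves an imiquimod plate at 0 and a value that depends on the prior count. All 12 cells with Ebi3 had a T cell and a Treg marker. Macrophage markers were present in 66.7% of them and in 35.8% of cells without Ebi3. Endothelial markers were present in 58.3% and 21.1%, mast cell markers in 50% and 16.3%, and gamma delta T cell markers in 33.3% and 3.68%. The B cell list and the CD8 T and NK cell list were less frequent. The part of other cell types in Ebi3 was not tested.

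Fgl2 did not separate the treatments by either measure. It was detected in 10.5% and 15.9% of imiquimod cells and in 14.5% and 8.62% of vehicle cells, with overlapping plates. Its summed counts were 18188 and 13516 on the imiquimod plates and 14538 and 15982 on the vehicle plates, which overlapped as well. The edgeR log2 fold change of 0.97 ± 1.48 (SE, adjusted p = 0.871) became -0.11 after thinning. All 25 cells with Fgl2 had a T cell marker.

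Of the granule genes, Gzmb did not separate the treatments by either measure. It was detected in 21.1% and 15.9% of imiquimod cells and in 16.1% and 25.9% of vehicle cells. Its summed level was 1050 and 867 CPM on the imiquimod plates and 1102 and 785 CPM on the vehicle plates. The groups overlapped in both measures, and the edgeR log2 fold change was 0.58 ± 0.70 (SE, adjusted p = 0.822), or -0.56 after thinning. Of the 40 cells with Gzmb, 37 had a T cell marker, 40 had a Treg marker and 3 had a marker of CD8 T or NK cells.

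Srgn stood at a higher level on both imiquimod plates, though in a lower share of their cells. It was detected in 52.6% and 54.5% of imiquimod cells and in 61.3% and 58.6% of vehicle cells. The shares averaged 53.6% ± 1.35 and 60.0% ± 1.89 (SD, n = 2 plates each, exact permutation p = 0.333, two-sided), and the direction turned to 3.85 percentage points higher in imiquimod when detection required 10 counts. Plate sums of Srgn came to 3428 and 2283 CPM for imiquimod, against 941 and 547 CPM for vehicle, so both imiquimod plates were above both vehicle plates. The edgeR log2 fold change was 2.51 ± 0.58 (SE, unadjusted p = 8.89e-04, adjusted p = 0.420), rank 7 of 14462 genes by p, and it missed the threshold. Without imiquimod plate 1 the log2 fold change was 2.01 (adjusted p = 0.0410), and without imiquimod plate 2 it was 3.03 (adjusted p = 2.74e-04), fits in which the single imiquimod plate borrows the spread seen between the vehicle plates. Leaving out vehicle plate 1 gave 3.03 (adjusted p = 0.587) and leaving out vehicle plate 2 gave 2.09 (adjusted p = 0.759, edgeR).

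The higher sum of Srgn was spread over many detecting cells. The median level in cells with a count was 2663 and 3108 CPM on the imiquimod plates and 503 and 251 CPM on the vehicle plates. At least 1000 CPM of Srgn was reached by 34 of 44 detecting imiquimod cells and by 23 of 72 detecting vehicle cells. The median differed by 3.02 on the log2 scale (exact permutation p = 0.333, two-sided, n = 2 plates each), in a comparison added after the values were seen. A larger ratio was found for 10.5% of the 3777 genes with enough detecting cells, and medians higher on both imiquimod plates for 26.1% of them. The highest single cell held 23.2% and 10.9% of the Srgn counts on the imiquimod plates and 23.1% and 21.9% on the vehicle plates, and with each plate's highest cell left out the edgeR log2 fold change was 3.20 (adjusted p = 0.277). Of the other members with enough cells, Il10, Fgl2, Gzmb and Nt5e had medians in detecting cells that overlapped between the treatments. T cell markers were present in 95.7% of the cells with Srgn and in 87.2% of those without. Mast cell markers, mostly Kit, were present in 26.7% of the cells with Srgn and in 6.98% of those without. Neutrophil markers were present in 11.2% and 2.33%. The neutrophil list, like Srgn, was higher on both imiquimod plates, and the mast cell list was lower on both. The part of either cell type in the level of Srgn was not tested.

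**Figure D2:**
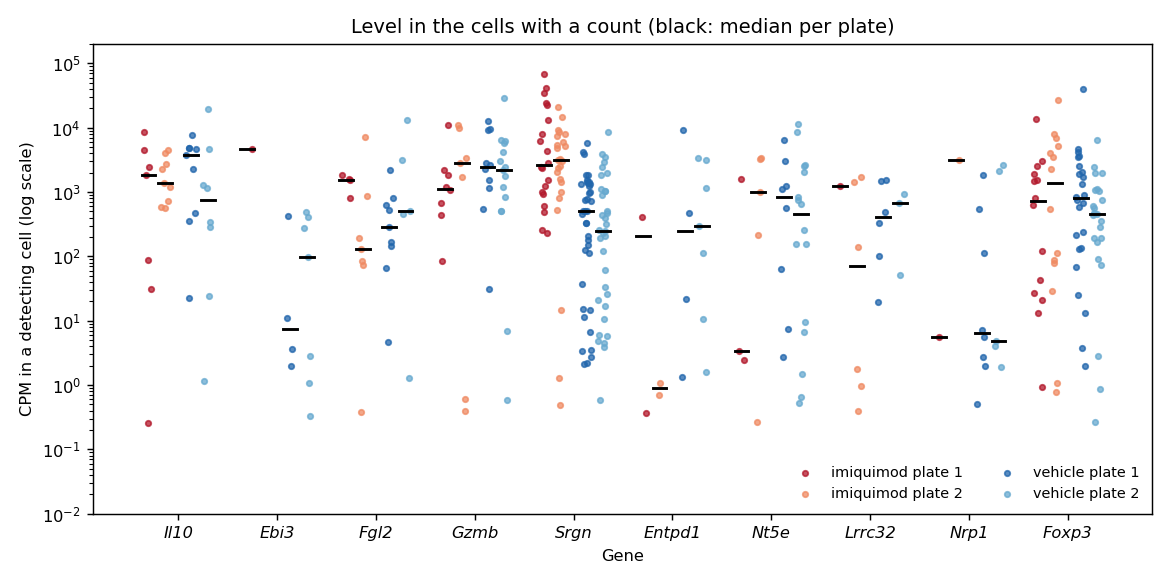
CPM in each kept cell with a count (log axis) for the effector genes and Foxp3, with 1 colour per plate and the median per plate in black. The Srgn medians are 2663 and 3108 CPM on the imiquimod plates and 503 and 251 CPM on the vehicle plates, while single cells of Ebi3, Entpd1 and Nrp1 span several powers of 10.

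Both ectoenzymes of the adenosine route were seen in a lower share of cells on both imiquimod plates. Entpd1 was detected in 5.26% and 4.55% of imiquimod cells and in 6.45% and 12.1% of vehicle cells, or 4.90% ± 0.507 and 9.26% ± 3.97 (SD, n = 2 plates each, exact permutation p = 0.333, two-sided). Summed Entpd1 came to 150 and 2 counts on the imiquimod plates and to 6646 and 14178 counts on the vehicle plates, without overlap, and 1 cell held 99.3% of the counts of imiquimod plate 1. Its log2 fold change was -5.79 ± 3.59 (SE, edgeR adjusted p = 0.552), and 1 cell carried 81.3% and 66.2% of the counts on the vehicle plates. Macrophage markers, over all cells mostly Adgre1 at a low summed level, were present in 60% of the cells with Entpd1 and in 35.8% of those without. Endothelial markers, over all cells mostly Pecam1 and Emcn, were present in 40% and 21.9%. The empty wells with 1 count each of Entpd1 reach the per-well count of the imiquimod cells other than that 1.

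Nt5e was detected in 7.89% and 11.4% of imiquimod cells and in 12.9% and 27.6% of vehicle cells, or 9.63% ± 2.45 and 20.2% ± 10.4 (SD, n = 2 plates each, exact permutation p = 0.333, two-sided). Its summed counts were 8028 and 22395 on the imiquimod plates and 10414 and 39285 on the vehicle plates, which overlapped. For level, edgeR gave a log2 fold change of -0.01 ± 1.46 (SE, adjusted p = 0.999), and it was 0.42 with DESeq2 size factors. Nt5e thus had no stable direction in level, while its share of cells was lower on both imiquimod plates, as it was for 47.8% of genes. Macrophage markers, over all cells mostly Adgre1, were present in 53.1% of the cells with Nt5e and in 34.7% of those without. Endothelial markers, over all cells mostly Pecam1 and Emcn, were present in 43.8% and 19.4%. The part of these cell types in the shares of either ectoenzyme was not tested.

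Of the surface molecules, Lrrc32 showed no direction in detection. It was seen in 2.63% and 13.6% of imiquimod cells and in 9.68% and 5.17% of vehicle cells. The summed counts of Lrrc32 were 6069 and 8829 on the imiquimod plates and 8376 and 3080 on the vehicle plates, and the edgeR log2 fold change was 1.04 ± 2.25 (SE, adjusted p = 0.920). On imiquimod plate 1 a single cell held all 6069 counts.

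Nrp1 was seen in 1 of 38 and 1 of 44 imiquimod cells and in 8 of 62 and 5 of 58 vehicle cells. The shares were 2.45% ± 0.254 in imiquimod and 10.8% ± 3.03 in vehicle (SD, n = 2 plates each, exact permutation p = 0.333, two-sided). Summed levels were 0.0297 and 32.7 CPM on the imiquimod plates and 76.1 and 255 CPM on the vehicle plates, so the plates did not overlap. For Nrp1, edgeR gave a log2 fold change of -2.95 ± 2.86 (SE, adjusted p = 0.758). It was -11.46 (adjusted p = 0.0221) without imiquimod plate 2, which leaves an imiquimod plate with 2 counts. Of the 13 vehicle cells with Nrp1, 8 had fewer than 10 counts. Mast cell markers, mostly Kit and also lower on both imiquimod plates, were present in 53.3% of the cells with Nrp1 and in 15.5% of those without. Dendritic cell markers were present in 46.7% and 28.3%, and endothelial markers in 40% and 21.9%. Macrophage markers went the other way, at 20% and 39.0%, as did the neutrophil, fibroblast, keratinocyte, gamma delta, B cell, and CD8 T and NK cell lists. The part of these cell types was not tested.

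Genes that work with the members, listed with earlier results of these data known, were read beside them, and none passed the test. In the IL-10 and IL-12 family axis, 9 of 14 tested genes had a log2 fold change above 0, and their median was 0.55 against -0.26 for all genes. Its genes of highest level were Stat3, the transcription factor downstream of the IL-10 receptor, at -0.50 ± 0.87 (SE), and Batf, an AP-1 family factor, at -0.07 ± 0.96. For granule proteases and cytotoxic machinery 9 of 15 were positive, with a median of 0.50. Unc13d and Stx11, which act in the priming and fusion of cytotoxic granules, had 2.45 ± 2.29 and -1.84 ± 1.79.

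In the purine and adenosine pathway 5 of 11 genes were positive, with a median of -0.02. The adenosine receptor gene Adora2a stood at -0.10 ± 1.51 (SE) and the nucleoside transporter gene Slc29a1 at 0.13 ± 2.02. Among TGF-beta activation and neuropilin partners 9 of 13 were positive, with a median of 0.42. There Itgav, an integrin chain that helps to release TGF-beta, had 0.42 ± 0.69 and Sema4d, a semaphorin, 0.78 ± 0.80. In contact-dependent suppression 5 of 9 were positive, with a median of 0.43. The costimulatory receptor gene Icos had 0.83 ± 0.65, and Il2ra, the interleukin-2 receptor alpha chain, had -1.46 ± 0.58 (edgeR adjusted p = 0.420).

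Co-detection with Foxp3 was read within each plate, between cells with and without a Foxp3 count. Foxp3 was seen in 36.8% and 31.8% of imiquimod cells and in 38.7% and 39.7% of vehicle cells. Over all kept cells, Srgn was the member detected more often in Foxp3-detected cells on all 4 plates, but not among cells with at least 1000 genes. The classes differed in depth. The median number of genes in Foxp3-detected cells was 1080 and 1344 on the imiquimod plates and 2222 and 2740 on the vehicle plates, and in Foxp3-undetected cells it was 794 and 1042 on the imiquimod plates and 840 and 1043 on the vehicle plates. Of all 9042 genes, 24.6% were also seen more often in Foxp3-detected cells on all 4 plates and 0.874% less often, and the median gene differed by 5.73 percentage points. Thinned to 100000 counts, Foxp3-detected cells still had a median of 622 and 702 genes on the imiquimod plates and 1117 and 1628 on the vehicle plates, and Foxp3-undetected cells had 330 and 430 on the imiquimod plates and 522 and 431 on the vehicle plates. Equal counts thus did not give equal numbers of genes. The exact sign-flip permutation test over 4 plates cannot go below p = 0.125.

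Srgn was detected in 57.1% and 64.3% of Foxp3-detected and in 50% and 50% of Foxp3-undetected cells on the imiquimod plates. On the vehicle plates the shares were 75% and 82.6% of Foxp3-detected and 52.6% and 42.9% of Foxp3-undetected cells. The mean difference was 20.9 ± 14.0 percentage points (SD, n = 4 plates, exact permutation p = 0.125, two-sided, the smallest possible). After thinning of cells to 100000 counts the means were 70.9% of Foxp3-detected and 41.2% of undetected cells, higher on 4 of 4 plates. Among cells with at least 1000 genes the means were 77.3% and 67.2%, a difference of 10.1 percentage points that was higher on 3 of 4 plates (exact permutation p = 0.500, n = 4 plates, two-sided). The exception was imiquimod plate 2, with 7 of 12 Foxp3-detected and 12 of 16 undetected cells.

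Over all kept cells, Il10, Fgl2 and Lrrc32 were each seen more often in Foxp3-detected cells on 3 of 4 plates, and none reached the smallest p. Il10 was found in 23.8% ± 13.0 of Foxp3-detected and 13.2% ± 5.12 of Foxp3-undetected cells (SD, n = 4 plates, exact permutation p = 0.375, two-sided). The difference was widest on imiquimod plate 2, with 6 of 14 Foxp3-detected and 3 of 30 undetected cells. Fgl2 was found in 19.4% ± 13.5 of Foxp3-detected and 8.43% ± 4.19 of undetected cells (SD, n = 4 plates, exact permutation p = 0.375, two-sided), widest on vehicle plate 1 with 8 of 24 and 1 of 38 cells. Lrrc32 was found in 9.91% of Foxp3-detected and 6.41% of undetected cells (exact permutation p = 0.375, n = 4 plates, two-sided). Of the cells with each gene, 17 of 33 with Il10 and 15 of 25 with Fgl2 had a Foxp3 count. Over all single-cell wells, with those below the filter, Il10, Fgl2 and Gzmb were higher on 4 of 4 plates, as Srgn was. Each had an exact permutation p of 0.125 (n = 4 plates, two-sided), and the share of all genes was not computed there.

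The other 5 members did not differ in 1 direction on all 4 plates among the kept cells. Gzmb was seen in 22.0% of Foxp3-detected and 18.1% of undetected cells, higher on 2 plates and lower on 2 (exact permutation p = 0.750, n = 4 plates, two-sided). Nt5e was at 15.0% in both classes. Ebi3 had 8.61% of Foxp3-detected and 3.07% of undetected cells, and Nrp1 7.38% and 5.99%. Entpd1 was the member seen less often with Foxp3 in the mean, in 4.30% of Foxp3-detected and 8.58% of undetected cells, lower on 3 of 4 plates (exact permutation p = 0.250, n = 4 plates, two-sided). On the imiquimod plates none of 14 and none of 14 Foxp3-detected cells had Entpd1, each of which allows a share of up to 21.4%. Of the 4 imiquimod cells with Entpd1, 3 had fewer than 10 counts. With detection at 10 counts the mean difference was -1.17 percentage points, against -4.28 at 1 count, and imiquimod plate 2 was at 0. Entpd1 was lower on 4 of 4 plates among cells with at least 1000 genes. It was also lower on 4 of 4 among cells with a T cell receptor or CD3 count. Both gave an exact permutation p of 0.125 (n = 4 plates, two-sided), and the share of all genes was not computed there.

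**Figure D3:**
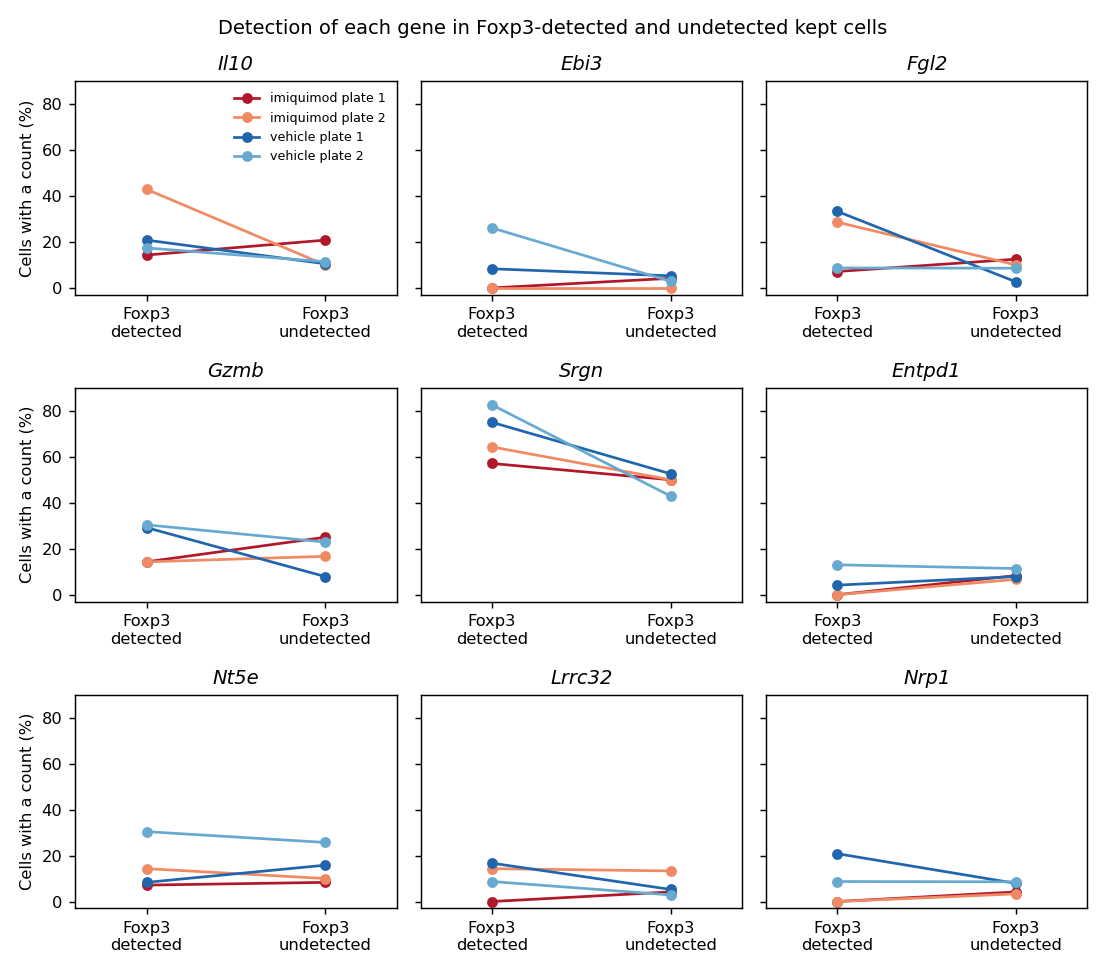
Percent of kept cells with a count of each effector gene among Foxp3-detected and Foxp3-undetected cells, with 1 line per plate. The Srgn lines slope the same way on all 4 plates, from 57.1% to 82.6% in Foxp3-detected and 42.9% to 52.6% in undetected cells. The Gzmb lines slope one way on the imiquimod plates and the other on the vehicle plates. For Nrp1 the line of vehicle plate 1 slopes against those of the imiquimod plates, and vehicle plate 2 is almost level at 8.70% and 8.57%.

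Levels gave no call between the classes. Sums of Foxp3-detected and undetected cells, fitted with the plate as a term, gave 0 calls among 14603 genes other than Foxp3 (0%), with 304 at an unadjusted p under 0.05 by edgeR, while DESeq2 called 1685, none of them a member. The edgeR log2 fold change of Srgn was 0.05 ± 0.65 (SE), of Gzmb -0.63 ± 1.03, of Il10 -0.30 ± 1.86 and of Fgl2 -1.70 ± 2.14, each with an adjusted p of 1.00. Srgn in Foxp3-detected cells was at 772 and 3115 CPM on the imiquimod plates and 1230 and 618 CPM on the vehicle plates. In Foxp3-undetected cells Srgn was at 5687 and 1802 CPM on the imiquimod plates and 466 and 425 CPM on the vehicle plates. The treatments overlapped in the first class and not in the second, and the share of all genes without overlap within a class was not computed. Whether the treatment difference of Srgn varies with the class was not tested.

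Most cells carried few of the 9 genes. None was detected in 46 cells, 1 in 72, 2 in 42, 3 in 26, 4 in 10 and 5 in 6. The median number of genes was 710 in cells with none, 988 with 1, 1528 with 2, 2282 with 3, 3027 with 4 and 2008 with 5. At least 1 member was found in 65.8% and 81.8% of imiquimod cells and in 77.4% and 81.0% of vehicle cells. The most frequent pair was Gzmb with Srgn in 29 cells, which is 72.5% of the cells with Gzmb and 25% of those with Srgn. Srgn was also present in 26 of the 33 cells with Il10 and in 22 of the 32 with Nt5e. Among pairs without Srgn, Fgl2 and Gzmb shared 11 cells, which is 44% of Fgl2 cells and 27.5% of Gzmb cells, and Il10 shared 9 cells with Fgl2 and 9 with Gzmb. These counts are a description, and the part of depth in them was not tested.

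Wells of 10 cells held 710021 to 9159522 counts. In such wells, a difference between fewer cells with a gene and less RNA per cell cannot be told apart. Gzmb and Srgn were detected in 16 of 16 wells, as was Foxp3. Il10 was found in 12, Entpd1 and Nt5e in 11 each, Ebi3 in 10, Fgl2 in 9, Nrp1 in 7 and Lrrc32 in 4. Between 4 and 8 members were seen per well.

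Levels spread widely between these wells, and the CPM given here are not scaled by gene length. Srgn ranged from 78.6 CPM through a median of 1355 to 3281 CPM, and Gzmb from 39.1 CPM through 1054 to 2538 CPM. Foxp3 ranged from 43.3 through 518 to 1237 CPM. Nt5e had a median of 198 CPM and a highest well of 994, Entpd1 82.7 and 1198, and Il10 78.7 and 3380. Medians were 7.43 CPM for Fgl2, 1.83 for Ebi3 and 0 for Lrrc32 and Nrp1, with highest wells of 692, 1276, 358 and 427 CPM.

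The 4 sets of these wells, with 4 wells each and no treatment label, were unequal. Il10 was in 4 of 4 wells of set 4 with a median of 541 CPM, and had medians of 26.2 and 4.35 CPM in sets 2 and 3. Nt5e was in 4 of 4 wells of set 1 with a median of 396 CPM but in 1 well of set 3 at 7.13 CPM. Srgn had set medians of 1051, 505, 2194 and 1789 CPM in sets 1 to 4.

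**Figure D4:**
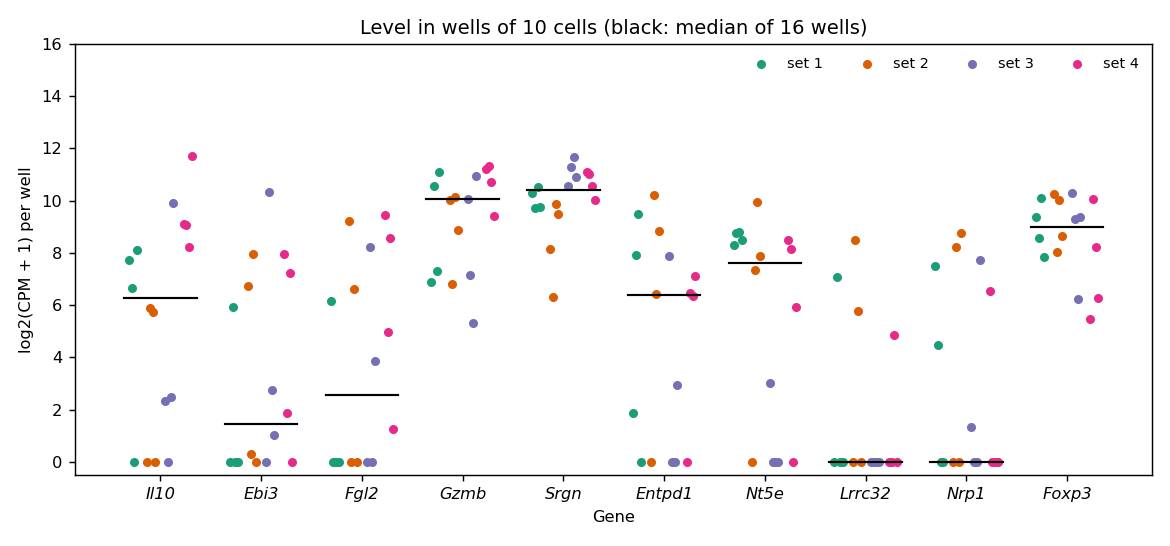
Level of each effector gene and of Foxp3 as log2(CPM + 1) in the 16 wells of 10 cells, coloured by set, with the median in black. Gzmb, Srgn and Foxp3 have counts in all 16 wells, and Lrrc32 and Nrp1 have a median of 0.

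Across these 16 wells the genes whose level ranked most like a member were listed for the 3 members seen in at least 12 wells, over 2272 genes. The coefficient is Spearman's on log2(CPM + 1), as a description over wells that share sets and depth. The genes most like Srgn were Fth1, the ferritin heavy chain, at 0.90 (0.82 within sets) and Rpl6, a ribosomal protein, at 0.87 (0.53 within sets). For Gzmb they were Coro1a, an actin regulator of leukocytes, at 0.83 (0.76 within sets) and the kinase gene Tlk2 at 0.82 (0.85 within sets). For Il10 they were Pfdn5, a chaperone subunit, at 0.78 (0.55 within sets) and Gusb, a lysosomal enzyme, at 0.77 (0.52 within sets). A coefficient of 0.7 or more was reached by 54 genes for Srgn, 6 for Gzmb and 5 for Il10.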

How the data were processed

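The deposited values are read counts per gene symbol and well, with no normalisation by the authors. Per the submitters' processing notes, the tools were Trimmomatic 0.39, STAR 2.7.3a and SAMtools 1.12 with mm39. How reads were assigned to genes, with which annotation and strand setting, is not given in the sources used here, so genes that overlap others are uncertain. Per the labels' protocols, cDNA was primed with oligo dT and amplified for 24 cycles, and libraries for 12 more.

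The members and gene lists were chosen with earlier results of these data known. Kept cells were summed per plate, or per plate and Foxp3 class, and all genes were tested with edgeR 4.0.16 (filterByExpr, TMM, quasi-likelihood) in R 4.3.3. CPM in the text is unscaled unless stated. DESeq2 1.42.0 and limma 3.58.1 were alternatives, beside other filters, thinning, leaving out each gene's highest cell per plate and leaving out each plate. Shares were compared with exact permutation tests in scipy 1.17.1. Named beside the 9 genes and Foxp3 were the 2 genes of highest mean level per list and the 2 most alike per member. The edgeR fits, but not the permutation tests, were checked on simulated counts. Recovery of the changes was required only at a dispersion (spread between sums) below those fitted here. These were 2.71 for treatment and 3.97 for Foxp3 class. Doublets were not called, because each well was filled by a sorter.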

Additional observations from a re-analysis of the deposited data

Results flagged for a closer look

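Over all kept cells, the co-detection of Gzmb with Foxp3 went opposite ways on the plates of the 2 treatments. The share of cells with Gzmb in Foxp3-detected minus undetected cells was -10.7 and -2.38 percentage points on the imiquimod plates and 21.3 and 7.58 on the vehicle plates. The means of -6.55 and 14.4 differ by -21.0 points, with an exact permutation p of 0.333 (two-sided, n = 2 plates each), the smallest that 2 plates against 2 allow. The shares rest on 2 of 14 and 2 of 14 Foxp3-detected cells on the imiquimod plates and on 7 of 24 and 7 of 23 on the vehicle plates. The opposite directions were lost under some changes of processing and kept under others. Imiquimod plate 2 was at 4.29 points after thinning to 100000 counts and at 7.29 with detection at 10 counts. Over all single-cell wells both imiquimod plates were positive, at 2.22 and 5.46. Among cells with at least 1000 genes the imiquimod plates were at -20.5 and -2.08 and the vehicle plates at 23.5 and 4.04. Among cells with a T cell receptor or CD3 count they were at -14.6 and -0.615 and at 23.0 and 10.4. The imiquimod mean was 1.63 points at 10 counts and 3.84 over all wells, against vehicle means of 16.6 and 13.7.

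Nrp1 showed the same arrangement with fewer cells and almost no difference on vehicle plate 2. The differences were -4.17 and -3.33 percentage points on the imiquimod plates and 12.9 and 0.124 on the vehicle plates. The means of -3.75 and 6.53 differ by -10.3 points (exact permutation p = 0.333, two-sided, n = 2 plates each, the smallest possible), and 1 cell per imiquimod plate had Nrp1. With detection at 10 counts, imiquimod plate 1 was at 0. Treatments were compared in this way for all 9 genes, and 6 of them (Ebi3, Gzmb, Srgn, Entpd1, Lrrc32 and Nrp1) reached the same p of 0.333. For Srgn the means were 10.7 points on the imiquimod plates and 31.1 on the vehicle plates, in the same direction. The share of all genes with such an arrangement was not computed.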

How the results depend on the processing

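No paired analysis was possible because well numbers are positions on a plate and the plates are nested in the treatments. Depth and 2 plates per treatment limit every result. Counts of called genes depended on the tool: 4521 by DESeq2 and 9 without the expression filter for treatment, against 0, and 0 to 794 when leaving out a plate (215 without imiquimod plate 1, 794 without imiquimod plate 2), and 1685 by DESeq2 for Foxp3 class. The cause was not tested.

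Directions turned as follows, none with a call. Detection (imiquimod minus vehicle, percentage points): Fgl2 -1.15 in all wells, Srgn 3.85 at 10 counts, and Lrrc32 -2.67 thinned, -2.70 at 10 counts and -1.72 in all wells. Co-detection with Foxp3: Nt5e -2.85 in cells with T cell receptor or CD3 counts and Nrp1 -1.02 in cells with at least 1000 genes. Treatment log2 fold change: thinned, Il10 -0.02, Fgl2 -0.11 and Gzmb -0.56. By limma, Ebi3 -0.28, Gzmb -0.42, Lrrc32 -0.12 and Foxp3 -0.42. For Nt5e, 0.41 by DESeq2, 0.42 with its size factors and 0.71 at 1000 genes. Foxp3 class: Il10 0.28 at 1000 genes, and Srgn -0.08 by DESeq2 and -0.12 with its size factors. Without each highest cell, Srgn was -0.51, Nt5e -3.30 and Nrp1 6.26.

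Leaving out a plate gave these ranges. Detection: Fgl2 -1.30 to 4.60, Gzmb -7.38 to 2.35 and Lrrc32 -4.79 to 6.21. Co-detection: Ebi3 -0.365 to 8.77, Gzmb -1.84 to 8.82, Nt5e -1.45 to 2.61 and Nrp1 -2.46 to 3.24. Treatment: Ebi3 -14.14 to 4.25 and Nt5e -0.64 to 0.98, while Srgn stayed positive at 2.01 to 3.03 and Nrp1 negative at -11.46 to -1.84. Foxp3 class: Il10 -1.79 to 0.92, Ebi3 -0.06 to 8.17, Gzmb -1.52 to 0.15, Srgn -0.57 to 0.79 and Nt5e -0.20 to 2.27. The other 345 alternative values kept direction and side of the threshold.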
